A study of Mus musculus with 16 samples.

Results

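Large clones were T cell receptor (TCR) clonotypes of 10 or more cells in mouse liver tumours 14 days after transplantation. They were chosen by their measured size, and 33 such clonotypes held 1005 cells. These were 1005 of the 2824 conventional cells with paired chains at day 14, and of the 5908 cells with a chain in the whole series. A clonotype was a set of cells of 1 library with the same V segment, J segment and CDR3 nucleotides in both the alpha chain (TRA) and the beta chain (TRB). Cells with TRAV11 joined to TRAJ18, the alpha chain of invariant natural killer T cells, were left out.

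The tumours grew from Hepa1-6 cells, a mouse hepatoma line, put into the left liver lobe of C57BL/6 mice. The control group (CON) was labelled CD4cre Matr3 WT/WT and the other group (KO) CD4cre Matr3 fl/fl, so both carried Cre recombinase under the Cd4 promoter and only the KO group carried floxed Matr3. Matr3 encodes the nuclear matrix protein matrin 3, which binds nucleic acids. The Cd4 promoter is active in thymocytes that become either CD4 or CD8 T cells. Day 14 had 2 TCR libraries of each genotype, and the labels do not say whether a library is 1 mouse or a pool, nor give the age of the mice. The spread between libraries may therefore be technical in part. The tables hold receptor chains only, so neither Matr3 nor markers of CD4 or CD8 T cells could be checked.

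A T cell that meets its antigen divides, and its daughters inherit the same rearranged receptor, so a group of cells with identical chains is read as 1 clone. The CDR3 is the loop where V and J segments (and a D segment in the beta chain) are joined with added and trimmed bases, and it makes most of the contact with the presented peptide. Both copies of the TRA locus can rearrange, so a T cell may carry a pair of productive alpha chains, while the TRB locus usually keeps a single productive chain.

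Clone size was the measure that chose the members, so numbers and shares are given as a description with no test. The CON library of replicate 1 had 15 large clonotypes with 486 of its 1150 conventional cells, which was 42.3% (95% exact Clopper-Pearson interval 39.4% to 45.2%). In the CON library of replicate 2 there were 8 with 269 of 673 cells, or 40% (36.2% to 43.8%). The KO libraries had 5 each. Those of replicate 1 held 132 of 460 cells, or 28.7% (24.6% to 33.1%). Those of replicate 2 held 118 of 541 cells, or 21.8% (18.4% to 25.5%). The intervals cover counting error only. CON libraries averaged 41.1% ± 1.62 and KO libraries 25.3% ± 4.87 (SD over 2 libraries each), and both CON libraries lay above both KO libraries. The CON libraries also held more conventional cells, 1150 and 673 against 460 and 541, and the part of library size in the number of clonotypes past a fixed minimum was not tested. At day 5 only 2 clonotypes reached this size, with 10 and 15 cells, both in CON libraries.

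Clonotypes are named here by library and rank, so that CON2-1 is the most frequent one of the CON library of replicate 2. The most frequent clonotype of a library held 98 cells (CON1-1), 111 (CON2-1), 63 (KO1-1) and 73 (KO2-1). As shares of conventional cells these were 8.52%, 16.5%, 13.7% and 13.5%, so the KO values lay between those of the CON libraries. At ranks 2 to 5 every CON clonotype held more cells than the KO clonotypes of the same rank. These are counts from libraries of unlike size. As a share of conventional cells the order failed at rank 2, where KO1-2 was at 6.96% and CON2-2 at 6.69%. The ranks count CON2-3 apart from CON2-1, which has the same TRB. With the 2 counted as 1 clone, CON2-5 and CON2-6 would be at ranks 4 and 5, with 2.38% and 1.78%. These shares are below those of KO1-4 (2.83%) and KO1-5 (2.17%). Ranks 2 and 3 held 87 and 68 cells in CON1, 45 and 34 in CON2, 32 and 14 in KO1, and 12 and 12 in KO2. At the minimum itself, 3 clonotypes had exactly 10 cells (CON1-15, KO1-5 and KO2-5) and 4 had exactly 9, of which 3 were in CON1 and 1 in KO2.

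**Figure D1:**
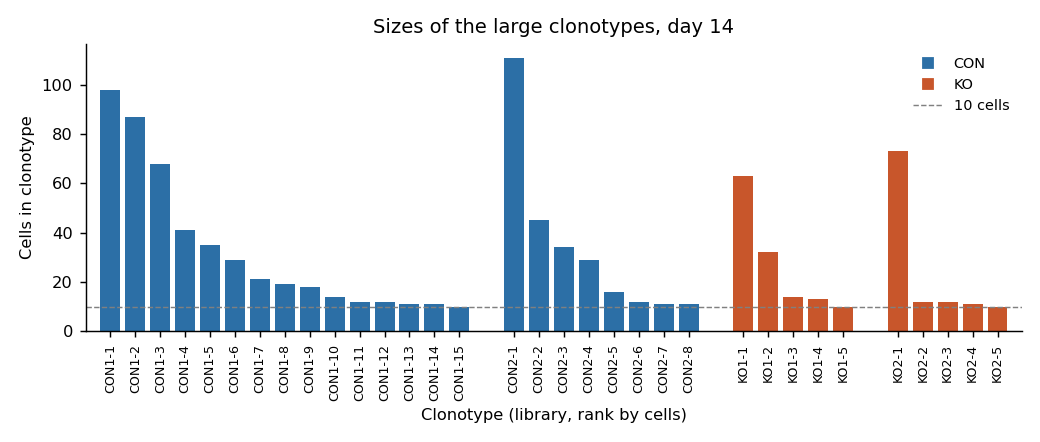
Cells in each of the 33 large clonotypes of day 14 (bars, y axis in cells), ordered by rank within library, with the minimum of 10 cells as a dashed line. CON1 has 15 bars, CON2 8 and either KO library 5, and the tallest bar is CON2-1 with 111 cells.

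The receptors of the largest clones had little in common beyond the families described further on. CON1-1 joined TRAV14-1 (deposited as TRAV14D-1) to TRAJ24 and TRBV19 to TRBJ1-4, with a TRB CDR3 of 16 residues. KO1-1 joined TRAV7-4 (deposited as TRAV7D-4) to TRAJ5 and TRBV20 to TRBJ2-7, with a TRB CDR3 of 14 residues. Their CDR3 nucleotides are shown because these 2 clones lead their libraries and have no counterpart among the large clones of the others. The codons between the 4 at either end are in capitals.
CON1-1 TRB: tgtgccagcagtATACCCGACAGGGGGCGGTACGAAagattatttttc
CON1-1 TRA: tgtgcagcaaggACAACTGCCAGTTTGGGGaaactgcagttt
KO1-1 TRB: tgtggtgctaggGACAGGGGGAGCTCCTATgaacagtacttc
KO1-1 TRA: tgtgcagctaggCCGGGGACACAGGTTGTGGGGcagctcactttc
No cell of another library had the TRA or TRB residues of CON1-1, nor a TRB with 1 residue changed. KO1-1 had its TRA residues in 6 cells of 2 other libraries, none with the same nucleotides, and a TRB with 1 residue changed in 2 cells.

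In 3 families, large clonotypes of different libraries shared the TRBV, the TRBJ and the CDR3 length. The families were defined after the sequences were seen, so they are described without a test. They took in 12 of the 33 large clonotypes and 501 of the 1005 cells (49.9%), and each had members in both genotypes. The 4 clonotypes of the TRBV13-1 family were 2 pairs, each with 1 TRB in its library. The share of smaller clonotypes that would meet the same rule is not given, so these numbers have no reference beside them. The definition did not use the alpha chains, which are given for each family.

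The first family joined TRBV13-1 (chromosome 6, 41116036 to 41116468, GRCm38, a V segment) to TRBJ1-1 (chromosome 6, 41533864 to 41533911) with 14 residues. It held CON2-1 and CON2-3 in CON and KO2-1 and KO2-5 in KO, 228 cells in all. Its TRB chains are shown because a CON and a KO library carried the same residues from different nucleotides. The single base that differs is in capitals.
CON2-1 and CON2-3 TRB: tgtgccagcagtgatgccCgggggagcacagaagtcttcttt
KO2-1 and KO2-5 TRB: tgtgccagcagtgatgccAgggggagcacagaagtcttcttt
The 2 sequences differed by 1 base and by 0 residues. Cells with these TRB residues numbered 151 in CON2 and 86 in KO2. In both libraries the clone had 1 alpha chain of TRAV6-6 joined to TRAJ43 with identical nucleotides, printed here with the central codons in capitals.
CON2-3 and KO2-5 TRA: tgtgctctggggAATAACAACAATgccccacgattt
In both, the other alpha chain used TRAJ50, joined to TRAV7-5 in CON2-1 and to TRAV13-3 in KO2-1.
CON2-1 TRA: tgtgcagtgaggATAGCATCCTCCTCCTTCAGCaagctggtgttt
KO2-1 TRA: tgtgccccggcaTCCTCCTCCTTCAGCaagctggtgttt
As any productive chain, the shared TRAV6-6 sequence was in 110 cells of CON2 and 54 of KO2. The family made up 21.7% of conventional cells in CON2 and 15.5% in KO2. It was absent from CON1, where 0 of 1150 cells allow a share of up to 0.261%, and from KO1, where 0 of 460 allow up to 0.652%. At day 5 there was 1 such cell in 1 library, with TRAV6-6 joined to TRAJ15.

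The second family joined TRBV5 (chromosome 6, 41062359 to 41062803, a V segment) to TRBJ2-7 (chromosome 6, 41543810 to 41543856) with 11 residues, the shortest TRB CDR3 among the large clones. All 4 large clonotypes of this family, with 139 cells, used TRAV7-6 (deposited as TRAV7N-6) joined to TRAJ22. The chains are shown to compare them, with the bases that differ among the 4 in capitals.
CON1-2 TRB: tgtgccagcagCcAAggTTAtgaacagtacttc
CON2-4 TRB: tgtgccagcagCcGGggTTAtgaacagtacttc
CON2-8 TRB: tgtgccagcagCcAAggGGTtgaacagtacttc
KO2-3 TRB: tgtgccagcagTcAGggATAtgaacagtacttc
CON1-2 TRA: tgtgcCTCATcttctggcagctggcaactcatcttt
CON2-4 TRA: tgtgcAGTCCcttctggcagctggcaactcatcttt
CON2-8 TRA: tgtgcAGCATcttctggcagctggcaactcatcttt
KO2-3 TRA: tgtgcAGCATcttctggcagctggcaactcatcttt
CON1-2 and KO2-3 had the same TRB residues from nucleotides that differed at 3 bases. The TRB nucleotides of CON1-2 were also in 6 cells of KO2 and 1 cell of KO1. CON2-8 and KO2-3 had the same alpha nucleotides, which were also in 9 cells of CON1. Other pairs differed by 1 or 2 residues in the TRB. The family made up 9.22% of conventional cells in CON1, 7.88% in CON2, 0.435% in KO1 and 4.25% in KO2. Beyond its large members it had 10 small clonotypes of 2 to 9 cells and 10 of a single cell at day 14. Over all 24 clonotypes, 75% used TRAV7-6, against 3.01% of the 1331 day 14 clonotypes, and 79.2% used TRAJ22, against 7.51%. At day 5 there was 1 such cell, with TRAV6-6 and TRAJ30.

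The third family joined TRBV12-1 (chromosome 6, 41113567 to 41114067, a V segment) to TRBJ2-5 (chromosome 6, 41543453 to 41543501) with 12 residues. Its 4 large clonotypes held 134 cells.
CON1-4 TRB: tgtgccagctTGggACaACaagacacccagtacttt
CON2-2 TRB: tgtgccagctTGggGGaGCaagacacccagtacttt
CON2-5 TRB: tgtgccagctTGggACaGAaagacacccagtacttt
KO1-2 TRB: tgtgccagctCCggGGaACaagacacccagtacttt
The bases that differ among the 4 are in capitals, and the pairs differed by 1 to 3 residues. The alpha chain was TRAV10 with TRAJ27 in CON1-4 and CON2-5, TRAV5-1 with TRAJ27 in CON2-2 and TRAV10 with TRAJ34 in KO1-2. The alpha CDR3 of KO1-2 differed from those of the CON members at 15 to 18 bases and 6 or 7 residues, and those of the CON members from each other at 4 to 10 bases and 2 to 4 residues. The TRB nucleotides of CON2-2 were also in 6 cells of KO2. The family made up 3.57% of conventional cells in CON1, 9.96% in CON2, 13.5% in KO1 and 2.03% in KO2. Of its 20 clonotypes at day 14, 70.0% used TRAJ27, against 9.02% of all clonotypes, 45.0% used TRAV10, against 3.16%, and 35.0% used TRAV5-1, against 1.35%. In KO1 it was spread over 10 clonotypes, of which 1 was large and 9 small. No cell of this family was seen at day 5, where the counts allow a share of up to 0.667% to 1.15% per library.

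**Figure D2:**
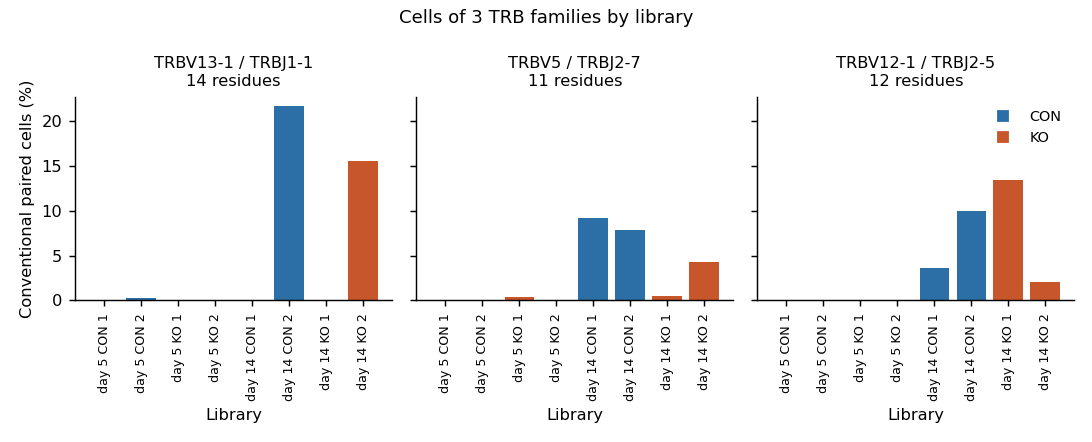
Share of conventional paired cells (y axis, percent) with each of the 3 TRB families in the 8 TCR libraries. The TRBV13-1 family is at 21.7% and 15.5% in CON2 and KO2 and at 0% in the other day 14 libraries, and all 3 families are at 0.342% or less in each day 5 library.

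Both chains recurred together, base for base, in other libraries for 1 large clonotype. This was CON1-14, with 11 cells, which was in all 4 libraries at day 14. It had 1 cell in CON2, 2 in KO1 and 1 in KO2.
CON1-14 TRB: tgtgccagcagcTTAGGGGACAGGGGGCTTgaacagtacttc
CON1-14 TRA: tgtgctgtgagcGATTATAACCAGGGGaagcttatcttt
The central codons are in capitals. It joined TRBV3 to TRBJ2-7 and TRAV9-1 to TRAJ23, and its alpha nucleotides were in 5 cells of KO2. Cell barcodes that recur between libraries numbered 21 over 28 pairs of libraries, with at most 3 in a pair. Of these barcodes, 7 belonged to a large-clone cell and 0 had the same TRB in both libraries.

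Over all large clones, 9 of 33 (27.3%) had their TRB residues (with the same TRBV and TRBJ) in another of the 8 libraries, and the number was also 9 without the recurring barcodes. The share was 13.0% of the 254 small clonotypes and 5.08% of the 1044 single-cell clonotypes. By library, the share of large clonotypes with such a relative was 13.3% in CON1, 37.5% in CON2, 20% in KO1 and 60.0% in KO2. In the same order it was 2.67%, 5.94%, 6.60% and 6.69% for single-cell clonotypes, so the large clones were higher in 4 of 4 libraries. The mean difference was 27.2 ± 19.7 percentage points (SD, n = 4), with p = 0.13 in the two-sided exact sign-flip permutation test, the smallest that 4 libraries allow, and 0.2 after Benjamini-Hochberg adjustment over 8 measures. Against small clonotypes the difference was 19.3 ± 18.5 points, again higher in 4 of 4 libraries (exact permutation p = 0.13, adjusted 0.5), and 11.9 points without the KO library of replicate 2. The shares of CON2 and KO2 each count 1 TRB in 2 clonotypes (CON2-1 with CON2-3, KO2-1 with KO2-5), and with each lineage counted once the differences were 23 and 15.1 points. Large clones were also relatives of each other. These 4 clonotypes had the same TRB residues, as did CON1-2 and KO2-3, so 1 TRB counted in 2 libraries. The differences of the 4 libraries were therefore not independent, which the permutation test leaves out of account. With 1 changed residue allowed, 51.5% of large, 33.1% of small and 14.6% of single-cell clonotypes had a relative. None of the 9 had its exact TRB residues in a day 5 library. Such a match was also rare in the other classes, with 3 of 254 small and 10 of 1044 single-cell clonotypes. With 1 changed residue allowed, 4 of 33 large clonotypes (12.1%) had a day 5 relative. The share was 11.4% of small and 6.61% of single-cell clonotypes.

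Among the 33 large clonotypes, 4 pairs shared a receptor chain within their library, so that the clonotypes formed 29 lineages. This joining was also made after the sequences were seen. In 3 of the pairs the TRB was the same and the cells divided by which of 2 alpha chains had more UMIs (unique molecular identifiers, the count of captured transcripts). These were CON1-3 with CON1-6 (97 cells), CON2-1 with CON2-3 (145 cells) and KO2-1 with KO2-5 (83 cells). CON1-3 and CON1-6 shared TRBV17 with TRBJ1-1 and carried TRAV6-4 with TRAJ39 and TRAV16-DV11 with TRAJ40.
CON1-3 and CON1-6 TRB: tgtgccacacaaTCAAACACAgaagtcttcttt
CON1-3 TRA: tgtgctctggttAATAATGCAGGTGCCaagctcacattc
CON1-6 TRA: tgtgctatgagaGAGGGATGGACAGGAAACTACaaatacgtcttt
In the fourth pair, CON1-8 with CON1-10, the alpha chain was the same (TRAV13-1 with TRAJ32). All 33 cells, 19 and 14, carried the same 2 productive TRB chains.
CON1-8 TRB: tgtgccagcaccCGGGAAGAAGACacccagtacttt
CON1-10 TRB: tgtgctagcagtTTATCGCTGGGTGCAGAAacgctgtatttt
The capitals in these 5 sequences mark the central codons. The first of the beta chains joined TRBV13-1 to TRBJ2-5 and the other TRBV29 to TRBJ2-3. Of the other large clonotypes, CON1-11 had a second TRB in 1 of its 12 cells. Barcodes with 2 TRB chains counted as possible doublets, and without them the mean number of large clonotypes in CON was 10.5 in place of 11.5.

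Second productive alpha chains were present in most cells of a large clonotype or in none. In 7 clonotypes, 60.3% to 90% of cells had one: CON1-3 (75%), CON1-6 (82.8%), CON2-1 (68.5%), CON2-3 (73.5%), KO2-1 (60.3%), KO2-2 (66.7%) and KO2-5 (90%). The other 26 clonotypes, with 668 cells, were those in which no cell had one. Single-cell clonotypes had a second alpha chain in 117 of 1044 cells (11.2%). The 7 clonotypes were 4 lineages, since 6 of them were the 3 pairs above. KO2-2, the second clonotype of its library with 12 cells, joined TRBV3 to TRBJ1-1 and carried TRAV12-2 with TRAJ39 beside its leading TRAV6-7-DV9 with TRAJ34 in 8 cells. A further 9 cells of KO2 had the same TRB with another leading alpha chain and were not counted in KO2-2. As any productive chain, its TRAV12-2 sequence was in 17 cells of KO2.

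**Figure D3:**
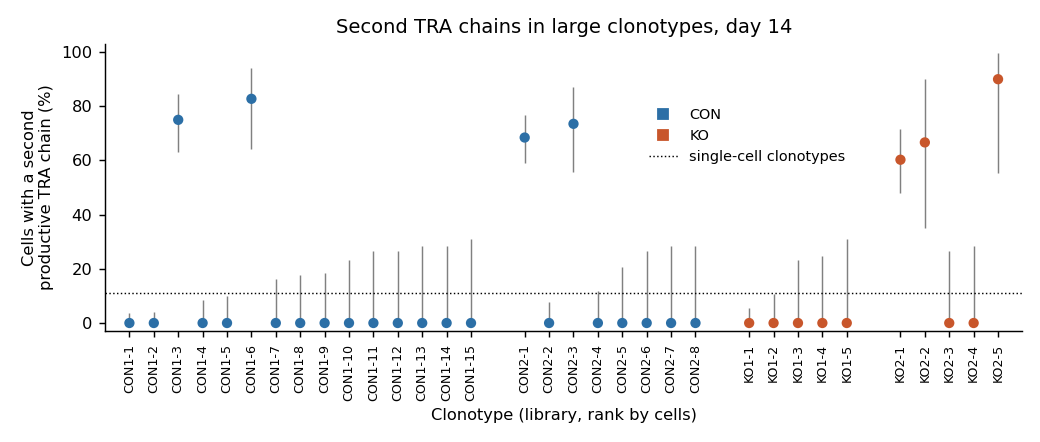
Percent of cells with a second productive TRA chain in each large clonotype (points) with 95% exact Clopper-Pearson intervals (lines), which cover counting error only. A dotted line gives the 11.2% of single-cell clonotypes. Of the points, 7 lie at 60.3% or higher and 26 at 0%.

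Averaged with each clonotype counted once, the share of cells with a second alpha chain was 10.5% in CON1, 17.8% in CON2, 0% in KO1 and 43.4% in KO2. For single-cell clonotypes it was 11.8%, 11.9%, 12.7% and 8.66%. The large clones were thus higher in 2 libraries and lower in 2, and the mean difference of 6.67 ± 20.2 points (SD, n = 4) was smaller than its spread (exact permutation p = 0.75). Without the KO library of replicate 2 it was -2.69 points. Detection depends on depth, and with cells thinned to 4 TRA UMIs the difference was 1.75 points (exact permutation p = 0.875). Thinning left out 116, 35, 38 and 19 large-clone cells and 166, 78, 68 and 118 single cells in the order CON1, CON2, KO1 and KO2.

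The TRB CDR3 of large clones ranged from 11 to 16 residues (median 14), counted with the conserved first and last residue. By library the mean was 13.3 residues in CON1, 12.9 in CON2, 13.8 in KO1 and 13.8 in KO2. Single-cell clonotypes had 13.8, 13.8, 13.9 and 13.9 residues. Large clones were shorter in 4 of 4 libraries, with a mean difference of -0.398 ± 0.400 residues (SD, n = 4, exact permutation p = 0.13, adjusted 0.2). Without the CON library of replicate 2 it was -0.219 residues, and with 20 or more cells per large clonotype -0.734. Of the 33 clonotypes, 6 had 11 residues and 5 had 12, and 8 of these 11 were of the TRBV5 and TRBV12-1 families. Against small clonotypes the length was lower in both CON libraries and higher in both KO libraries (mean difference -0.218 residues, exact permutation p = 0.625). Without the CON library of replicate 2 that difference was 0.0243 residues. The TRA CDR3 ranged from 10 to 16 residues, and its mean difference from single-cell clonotypes was -0.256 ± 0.265 residues, lower in 4 of 4 libraries (exact permutation p = 0.13, adjusted 0.2). Without the CON library of replicate 2 the TRA difference was -0.128 residues, with 20 or more cells -0.0216 and with each cell in place of each clonotype counted once 0.000676.

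Hydropathy, the mean Kyte-Doolittle value of the CDR3 without 4 residues at either end, is higher for more hydrophobic loops. In the TRB of large clones it was -1.21 in CON1, -1.45 in CON2, -1.55 in KO1 and -1.31 in KO2. In single-cell clonotypes it was -1.08, -1.07, -1.04 and -0.98 in the same order. The large-clone loops were more hydrophilic in 4 of 4 libraries, by -0.34 ± 0.16 (SD, n = 4, exact permutation p = 0.13, adjusted 0.2), and also against small clonotypes (-0.30 ± 0.19, 4 of 4 libraries, exact permutation p = 0.13, adjusted 0.5). With 5 or more cells per large clonotype the 2 differences were -0.187 and -0.138 and the libraries no longer all had 1 sign (exact permutation p = 0.375 and 0.625), and with 20 or more cells they were -0.727 and -0.689. Individual large clonotypes ranged from -3.75 (CON1-8) to 0.78 (CON1-10), which are the 2 beta chains of the same cells. After CON1-8 the lowest values were those of the TRBV12-1 family, -2.725 in CON1-4, CON2-2 and KO1-2 and -2.825 in CON2-5. The differences without this family were not computed, so how far the direction in CON1, CON2 and KO1 rests on it was not tested. TRA hydropathy differed by 0.089 ± 0.187, with 2 libraries higher and 2 lower (exact permutation p = 0.5). That difference depended on how clones were counted. It was 0.692 with each cell counted once and 0.342 with clones defined by the TRB alone, higher in 4 of 4 libraries both times (exact permutation p = 0.13). It was 0.799 with 20 or more cells and 0.311 with each lineage counted once (exact permutation p = 0.25 for each).

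**Figure D4:**
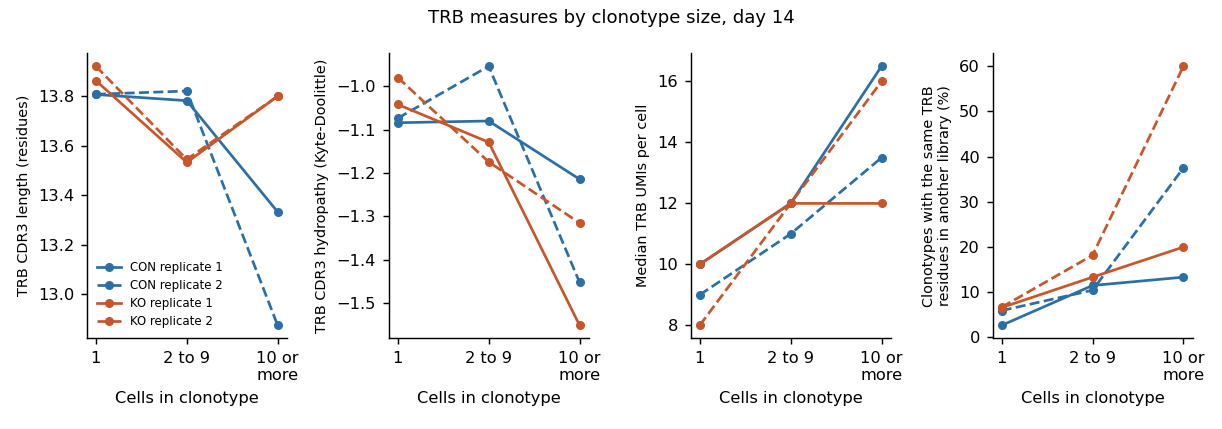
Means of TRB CDR3 length and hydropathy, median TRB UMIs per cell and the percent of clonotypes with a relative, for clonotypes of 1, 2 to 9 and 10 or more cells. Each line is 1 of the 4 day 14 libraries and each point a value over its clonotypes. From the leftmost to the rightmost points length and hydropathy go down and UMIs and relatives go up in all 4 lines.

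Large clones carried more TRB UMIs per cell than single-cell clonotypes of the same library. The median over clonotypes was 16.5 in CON1, 13.5 in CON2, 12.0 in KO1 and 16.0 in KO2, and that of single-cell clonotypes 10.0, 9.0, 10.0 and 8.0. The difference was 5.25 ± 2.60 UMIs (SD, n = 4), higher in 4 of 4 libraries (exact permutation p = 0.13, adjusted 0.2). Against single-cell clonotypes of the same TRBV, a comparison added after the data were seen, it was 5.88 (exact permutation p = 0.13). Small clonotypes had median TRB UMIs of 12.0, 11.0, 12.0 and 12.0 in CON1, CON2, KO1 and KO2. Against them the large clones were 2.75 ± 2.02 higher, with 3 libraries higher and 1 equal (exact permutation p = 0.25, adjusted 0.667). TRA UMIs were 1.88 ± 1.65 higher than in single-cell clonotypes on average, with 3 libraries higher and 1 equal (exact permutation p = 0.25). Against small clonotypes TRA UMIs differed by 0.75 ± 2.06, with 2 libraries higher and 2 lower (exact permutation p = 0.5).

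The clones differed from each other by more than that. Clonotype medians of TRB UMIs ranged from 5.0 (CON1-2) to 44.0 (CON1-3), and 24 of 33 lay above the single-cell median of their TRBV. All 7 TRBV13-1 clonotypes did, at 17.5 to 40 against 10.0, and so did all 4 TRBV3 clonotypes, at 16.0 to 17.5 against 11.0. Of the 5 TRBV12-1 clonotypes 2 did, at 7.0 to 11.0 in all against 8.0. Of the 2 largest CON1 clones, CON1-1 had a median of 5.5 TRB UMIs and CON1-2 one of 5.0, both lower than the 10.0 of single cells there. CON1-1 had 11.0 TRA UMIs, the highest TRA median, which CON2-7, KO1-4 and KO2-4 also had. Of 1080 cells with a large-clone TRB, 62 had no TRA and so were not members, and these were spread over 20 of 30 TRB sequences.

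**Figure D5:**
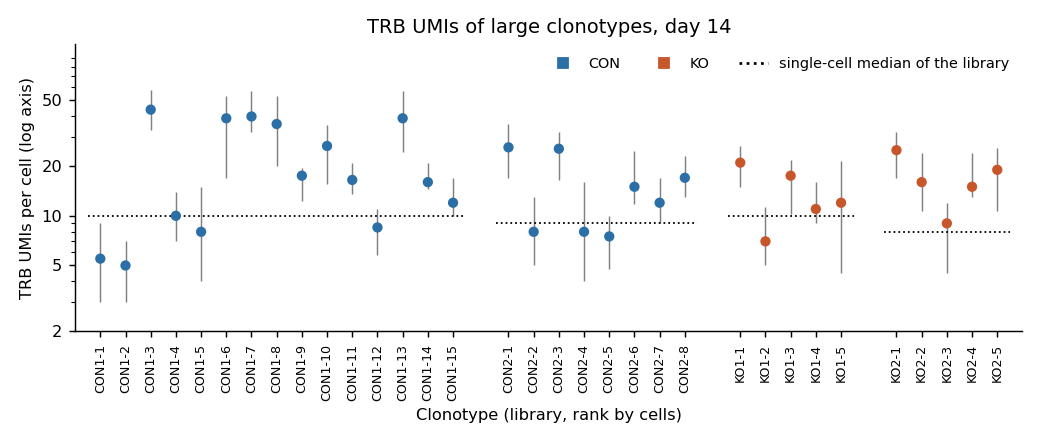
TRB UMIs per cell in each large clonotype (y axis, logarithmic), with the median as a point and the quartiles as a line. Dotted lines give the single-cell median of each library, 10.0, 9.0, 10.0 and 8.0 from left to right, and CON1-3 is highest with 44.0.

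Large clones used 13 of the 22 TRBV, 9 of the 12 TRBJ, 22 of the 53 TRAV and 19 of the 43 TRAJ segments seen in conventional cells of day 14 (copies of a TRAV merged). Segment use was compared with that of single-cell clonotypes by edgeR on clonotype counts, with each clonotype counted once, the library as a block and Benjamini-Hochberg adjustment over all 80 segments tested. The test called 0 of 80 segments (0%). Before adjustment 7 segments had p under 0.05, and DESeq2 also called 0. With TMM factors in place of the number of clonotypes 5 passed, all lower in large clones (TRBJ2-1, TRBJ2-4, TRBJ1-3, TRBV12-2 and the joint name TRBV12-2+TRBV13-2). With only 33 large clonotypes the test is weak: in simulated data it called 72.5% of 8-fold and 23.8% of 4-fold increases in large clones. Decreases were not simulated, so its power for segments lower in large clones is not known.

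Values of the segments with the smallest p are given as a description. TRBV13-1 was used by 7 of 33 large and 58 of 1044 single-cell clonotypes, with a mean share of 24.6% ± 11.3 against 5.74% ± 1.60 (SD, n = 4 libraries). This gave a log2 fold change of 1.95 ± 0.75 (SE) with an adjusted p of 0.338 in edgeR. It was higher in 4 of 4 libraries, and with each lineage counted once it was 1.63. TRAJ43 (chromosome 14, 54174742 to 54174798, a J segment) was used by 1 large clonotype in each library, 14.8% ± 6.47 against 2.61% ± 0.953. Its log2 fold change was 2.31 ± 0.92 (adjusted p = 0.338), and 1.49 with each lineage counted once. TRAV7-6, TRAV10, TRBV12-1 and TRBV5 had log2 fold changes of 2.18, 2.10, 1.78 and 1.60, and were higher in 3 of 4 libraries each. All 4 are segments of the TRBV5 or TRBV12-1 family. TMM factors moved the median of all segments by -1.66, and with them TRBV13-1 was at 0.23, TRAJ43 at 0.54, TRAV7-6 at 0.88, TRAV10 at 0.46, TRBV12-1 at -0.05 and TRBV5 at -0.08. With 5 or more cells TRBV13-1 was at 0.85, and without the CON library of replicate 2 TRBV5 was at 0.67. TRBJ2-1 was in 0 of 33 large and 111 of 1044 single-cell clonotypes, and the joint name TRBV12-2+TRBV13-2 in 0 and 84. Their fitted log2 fold changes were -6.88 and -6.37. With 5 or more cells per large clonotype these were -0.91 and -1.45, so the absence of both depends on the minimum of 10 cells. A count of 0 of 33 allows a share of up to 9.09%, against 10.5% ± 1.54 and 8.13% ± 2.52 in single-cell clonotypes, so for the joint name a lower use was not detectable at this depth.

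No member of any segment group passed the test, and the shares of whole groups are given without one. Vbeta8 segments (TRBV13-1, TRBV13-2, TRBV13-3 and the joint name) were used by 24.2% of large and 19.9% of single-cell clonotypes. Vbeta5 segments (TRBV12-1 and TRBV12-2) were used by 15.2% and 11.2%, in large clones by TRBV12-1 alone. The Jbeta1 cluster took 30.3% and 30.9%, and Jbeta2 69.7% and 69.1%. V-proximal Jalpha segments (TRAJ40 to TRAJ58), which join in early rearrangements, took 36.4% and 24.0%, the middle group (TRAJ23 to TRAJ39) 39.4% and 40.6%, and the V-distal group (TRAJ2 to TRAJ22) 24.2% and 35.3%. The median fitted log2 fold change was -0.80 over 3 tested Vbeta8, -2.12 over 2 Vbeta5, -0.58 over 6 Jbeta1 and -0.09 over 6 Jbeta2 segments. It was 0.21 over 7 V-proximal, -0.31 over 10 middle and -4.55 over 8 V-distal Jalpha segments, beside -0.34 over all 80. These medians depend on the prior count, since 28 of the 80 segments had no large clonotype. With such segments at the limit of 3 counts, every one of these group medians was above 0, and the median over all was 0.78. That limit, 9.09%, is higher than the single-cell share of each such segment except TRBJ2-1. Their values at the limit are therefore above 0 by construction and say nothing about segment use.

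Between genotypes, none of the 8 measures and no segment separated the large clones past a threshold, and 2 libraries against 2 cannot give a permutation p under 0.33. The TRB CDR3 was 13.8 residues in either KO library and 13.1 ± 0.324 in CON (SD, n = 2), and the groups did not overlap (difference 0.696, exact permutation p = 0.33, adjusted 1.0). TRA hydropathy was -1.09 ± 0.08 in KO and -1.37 ± 0.03 in CON, again without overlap (difference 0.28, exact permutation p = 0.33, adjusted 1.0). With 5 or more cells per large clonotype the length difference was 0.107 residues and the groups overlapped (exact permutation p = 0.667), and with 20 or more cells the hydropathy difference was 0.921. The CON and KO libraries overlapped in TRA length, TRB hydropathy, second alpha chains, TRA UMIs, TRB UMIs and relatives. Second alpha chains were at 21.7% ± 30.7 in KO, where one library was at 0% and the other at 43.4%, and at 14.1% ± 5.11 in CON. The share with a relative was 40% ± 28.3 in KO and 25.4% ± 17.1 in CON. Without the KO library of replicate 2 the KO minus CON differences of 7.56 and 14.6 points turned to -14.1 and -5.42.

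In edgeR on clonotype counts, 0 of 6 segments tested between KO and CON large clones passed (0%). Before adjustment 0 had p under 0.05, and DESeq2 also called 0. Only 10 KO clonotypes stood against 23 of CON, and in simulated data 8-fold increases in KO were called for 30% and 4-fold increases for 0%. Decreases in KO were not simulated. TRBJ1-1 and TRBV13-1 were each in 3 KO and 4 CON clonotypes (log2 fold change 0.74 ± 1.24, SE, adjusted p = 0.825). TRBJ2-5 was in 1 and 5 (-1.02), TRBV5 in 1 and 4 (-0.77), TRBV12-1 in 2 and 3 (0.53) and TRBJ2-7 in 3 and 8 (-0.20), each with the same adjusted p. With TMM factors, which moved the median of the 6 by -0.84, TRBJ1-1, TRBV13-1 and TRBV12-1 turned to -0.13, -0.13 and -0.28. TRBV5 turned to 0.19 without the KO library of replicate 1 and TRBJ2-7 to 0.19 without that of replicate 2.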

How the data were processed

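TCR chains of tumour-infiltrating cells were read from 8 single-cell libraries captured at the 5′ end of transcripts, of which the 4 of day 14 are the subject here. Per the file headers, the deposited values used are raw counts of UMIs and of reads for each contig. The submitters' processing notes name CASAVA 1.8, Cell Ranger 3.1.0, R 4.1.2, Seurat 4.0.0 and GRCm38 (mm10), with no role for each. Single-cell RNA samples of the series were not analysed here.

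Only barcodes with the authors' cell call and contigs marked high confidence and productive were used. The TRA and TRB with most UMIs (ties by reads) stood for the cell. Duplicated TRAV copies (D and N names) were merged for segment use. The name TRBV12-2+TRBV13-2 was kept as deposited. Possible doublets were kept except in an alternative. A day 14 library had 570 to 1404 cells with a chain and 11441 to 31936 UMIs in productive chains. Segment positions came from RefSeq genes of GRCm38.p6, which held all 65 segments of the large clones.

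Large clonotypes were compared with single-cell (and 2 to 9 cell) clonotypes within each library by two-sided exact sign-flip permutation over 4 libraries, and KO with CON by exact permutation, with Benjamini-Hochberg adjustment over 8 measures. Segment use was tested on clonotype counts with edgeR 4.0.16 (quasi-likelihood F test, R 4.3.3), the number of clonotypes as offset, a threshold of 0.05, and minimums of 20 clonotypes (classes) or 5 (genotypes). DESeq2 1.42.0 was an alternative. Other steps used Python 3.11.15, NumPy 2.4.6, SciPy 1.17.1 and pandas 2.3.3. Tests were tried on simulated data. Named clonotypes are the 3 largest of each library and those that share a chain within or between libraries, and named segments the 8 with the smallest p. Members, lists and rules were chosen with earlier results of these data known.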

Additional observations from a re-analysis of the deposited data

Results flagged for a closer look

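TRA hydropathy of large minus single-cell clonotypes had opposite signs in the genotypes. It was -0.0313 in CON replicate 1 and -0.1104 in CON replicate 2, and 0.2402 in KO replicate 1 and 0.2566 in KO replicate 2. This holds with each clonotype counted once, and the split is not shown for lineages. CON2-3 and KO2-5, both at -3.5, count beside CON2-1 (0.843) and KO2-1 (-0.08) of the same lineages. With each lineage counted once the mean difference was 0.311 (exact permutation p = 0.25), and its values by library are not given. With each cell counted once the mean difference was 0.692 and with TRB alone 0.342, with 1 sign in all 4 libraries (exact permutation p = 0.13 for both). TRB CDR3 length of large minus small clonotypes also had opposite signs in the genotypes. It was -0.449 and -0.946 residues in the CON libraries of replicates 1 and 2 and 0.267 and 0.255 in those of KO. Neither difference between genotypes was tested on its own, and with 2 libraries a group no permutation p can go below 0.33. These were 2 of 16 contrasts looked at.

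Barcodes that the authors did not call cells, outside the cell data used above, also carried large-clone TRB chains. Of such barcodes with a productive TRB, 130 of 284 (45.8%) in CON replicate 1, 74 of 195 (37.9%) in CON replicate 2, 46 of 110 (41.8%) in KO replicate 1 and 33 of 138 (23.9%) in KO replicate 2 did so, with a median of 1 UMI. Among cells with a TRB the shares were 38.3%, 35.1%, 26.6% and 18.6%, lower in each library.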

How the results depend on the processing

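Against single-cell clonotypes, the differences in TRB CDR3 length, TRB hydropathy, TRB UMIs, TRA UMIs, TRA hydropathy and relatives kept their direction in all alternatives run, but not their size: TRA hydropathy ranged from 0.0328 to 0.799, TRB hydropathy from -0.727 to -0.187, TRB length from -0.734 to -0.219 and relatives from 18.5 to 41.8 points. TRA length turned to 0.000676 with each cell counted once, and second alpha chains to -0.0392 points with 5 or more cells per large clonotype and to a range of -2.69 to 13.1 over the libraries left out (negative without KO replicate 2). Against small clonotypes, TRA length turned to 0.136 with 20 or more cells and 0.140 with each cell counted once, and second alpha chains to -1.3 with 5 or more cells and -0.737 with TRB alone. Over the libraries left out they ranged from -2.95 to 15.6, TRB length from -0.380 to 0.0243 and TRA hydropathy from -0.0315 to 0.130.

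Of the KO minus CON differences, only TRB length and TRA hydropathy kept their direction throughout, from 0.107 (5 or more cells) to 0.925 residues and from 0.222 to 0.921 (20 or more cells). With 20 or more cells TRA UMIs turned to 0.13 and TRB UMIs to 6.13. With each cell counted once second alpha chains turned to -0.642, TRB UMIs to 4.0 and relatives to -1.36. TRA UMIs turned to 0.25 with chains of 2 or more UMIs and to 0.5 with TRB alone. Over the libraries left out the ranges were -0.219 to 0.0190 for TRB hydropathy and -3.0 to 1.0 for TRB UMIs (positive without CON replicate 1 or KO replicate 1), -0.2 to 0.275 for TRA length (negative without CON replicate 2), -1.5 to 1.0 for TRA UMIs (positive without CON replicate 2 or KO replicate 1), -14.1 to 29.3 for second alpha chains and -5.42 to 34.6 for relatives (negative without KO replicate 2).

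The CON and KO means were 5.5 and 1.5 clonotypes with 32.7% and 17.1% of cells at 20 or more cells, and 23 and 12.5 with 48.5% and 34.0% at 5 or more. The KO number was 4.5 with the authors' identifier and with chains of 2 or more UMIs. With TMM factors 5 segments passed between classes, all lower in large clones (TRBJ2-1, TRBJ2-4, TRBJ1-3, TRBV12-2 and the joint name). In each large-clone library 41 to 67 of the 80 segments were at 0. With these factors TRBV12-1 turned to -0.0485 and TRBV5 to -0.0762. Between genotypes TRBJ1-1 and TRBV13-1 turned to -0.13 and TRBV12-1 to -0.28 with TMM factors, TRBJ2-5 to 0.47 with 5 or more cells and TRBJ2-7 to 0.50 with each cell counted once. Over the libraries left out TRBJ2-7 ranged from -0.76 to 0.19, and TRBV5 was 0.19 without KO replicate 1. Causes were not tested. The alternatives by lineage, by the same TRBV and without each library for clone sizes were chosen after seeing the data.

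The labels share only replicate numbers, and the deviations of same-numbered libraries correlated at -0.0421 over 80 segments. With the replicate block the TRB length difference between genotypes was 0.696 residues (exact permutation p = 0.5, 2 pairs) and 0 segments passed, so it changed no call.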
